A study of Mus musculus with 8 samples.

Results

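Needling at both hips, away from any acupoint, was compared with no needling in the cervical spinal cord of mice given MPTP. The comparison set the 2 arrays of hip-needled mice against the 2 arrays of mice that received MPTP without needling, so 4 of the 8 arrays of the series were compared directly. The other 4 arrays, from saline controls and from mice needled at acupoints, entered the model that estimates the spread between arrays. All mice were male C57BL/6, 6 weeks old. The control group received saline for 4 weeks. The MPTP group received MPTP by intraperitoneal injection at 20 mg/kg every 24 h for 4 weeks. The hip-needled group received the same MPTP course and was needled by hand 2 h after MPTP, every 48 h for 14 sessions, to a depth of 3 mm on both sides of the hips, with the needle turned at 2 spins per s for 15 s. The acupoint group received the same MPTP course and the same sessions at GB34 in the lower leg (3 mm) and LR3 in the foot (1 mm). Restraint by hand is described for needled mice, and nothing is said of handling in the MPTP mice left without needling. Each array is labelled with a mouse number, while the protocol counts 9 mice in each of the first 2 groups. The labels do not settle whether the RNA on an array came from a single mouse, so every p-value reflects the spread between arrays, part of which may be technical.

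MPTP is a neurotoxin that is converted to an active metabolite in the brain and kills dopaminergic neurons of the midbrain, and it is used to model parkinsonism. Needling the skin and muscle of the hip stimulates sensory nerves that enter the lumbar cord, and their input is relayed in the dorsal horn, where neuropeptides, opioids, inhibitory transmitters and descending serotonin shape how it is passed on. Handling and needling also act on the adrenal stress axis, whose glucocorticoid hormones switch on a well-known set of target genes in neurons and glia. A needled site away from an acupoint is the usual control for the point specificity of acupuncture.

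Each value is a log2 RMA signal for 1 probe set per gene, and a difference of 1 is a 2-fold difference in signal. Medians over the 16026 genes tested lay between 6.997 and 7.115 on all 8 arrays, and the hip and MPTP arrays correlated with each other at 0.994 to 0.996 across genes, which are not independent replicates. Positional genes of the cord were checked against the tissue label. Hoxa5 lay between 8.17 and 8.63 and Hoxc8 between 8.51 and 10.19 on the 8 arrays, and both belong to the Hox groups used by the cervical and brachial cord. Hoxd10, a gene of lumbar levels in the cord, was also bright on 7 arrays, at 7.64 to 9.07, so the tissue carried a positional marker that its cervical label does not predict.

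Each hip array stood apart from the other hip array and from the MPTP arrays in some genes. Hip replicate 2 exceeded all 7 other arrays by a log2 step of at least 1 in 15 genes, and hip replicate 1 in 1 gene, while it was below all others by that step in 3. The same count was 0 on each MPTP array, but control replicate 2 was above all others in 27 genes and below in 2, and control replicate 1 was above in 4, so arrays that stand apart were not limited to hip needling. Most of the 15 are genes of fat. Fabp4, the fatty acid carrier of adipocytes, was at 4.97 and 4.25 on the MPTP arrays and at 4.30 and 9.05 on hip replicates 1 and 2. Ucp1, the uncoupling protein of brown fat, was at 4.12 and 4.16 on the MPTP arrays and at 4.12 and 7.88 on the hip arrays. On the 7 arrays other than hip replicate 2 it lay at 3.78 to 4.35, around the filter value of 4.3. Ucp1 was thus among the genes tested only because of hip replicate 2. Car3, a carbonic anhydrase abundant in fat and muscle, was at 6.98 and 6.45 and then at 6.57 and 10.70. In each of these genes the signal of hip replicate 1 lay with the MPTP arrays and that of hip replicate 2 alone was high. The mean of 7 adipose markers was 7.52 on hip replicate 2 and 5.18 to 5.54 on the other 7 arrays, and 7 of 7 were higher there than the MPTP mean. Adipoq and Lep, which define fat cells, were not among the genes tested. Fewer cells of a type and less RNA per cell cannot be told apart in such tissue RNA.

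Hip replicate 1 was instead low in many Hox genes of the caudal cord. Hoxd10 was at 8.71 and 8.79 on the MPTP arrays and at 4.58 and 8.36 on hip replicates 1 and 2. Hoxc10 was at 7.34 and 7.48 and then at 5.18 and 7.06, and Hoxd11 was at 7.35 and 7.16 and then at 5.31 and 6.59. Hip replicate 2 was thus also below both MPTP arrays in these genes, but by much less. All 6 genes tested of Hox groups 10 and 11 were lower on both hip arrays than on both MPTP arrays (19.2% over all genes). Their median difference was -1.04, and it was -1.65 for hip replicate 1 and -0.37 for hip replicate 2. Low signal was not limited to hip needling. Control replicate 2 lay below hip replicate 2 in Hoxd10 (7.64), Hoxd11 (6.52), Hoxa11 (4.56) and Hoxc11 (3.85). In Hoxa10 (6.68) and Hoxc10 (7.24) it lay above hip replicate 2. Over groups 10 to 13, 10 of 12 genes were lower, while Hoxd12 and Hoxd13 lay above both MPTP arrays, with differences of 0.15 and 0.27. The 21 genes of groups 1 to 8 were split between 11 higher and 10 lower, with a median of 0.01. In group 9, Hoxd9 was at 6.32 and 6.31 on the MPTP arrays and at 5.64 and 5.84 on the hip arrays, a difference of -0.57 (SE 0.15). These sets were picked after their values were seen, so no test is given for them. Where along the cord each sample was cut was not tested, and the part of position in the other differences was not tested either.

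**Figure D1:**
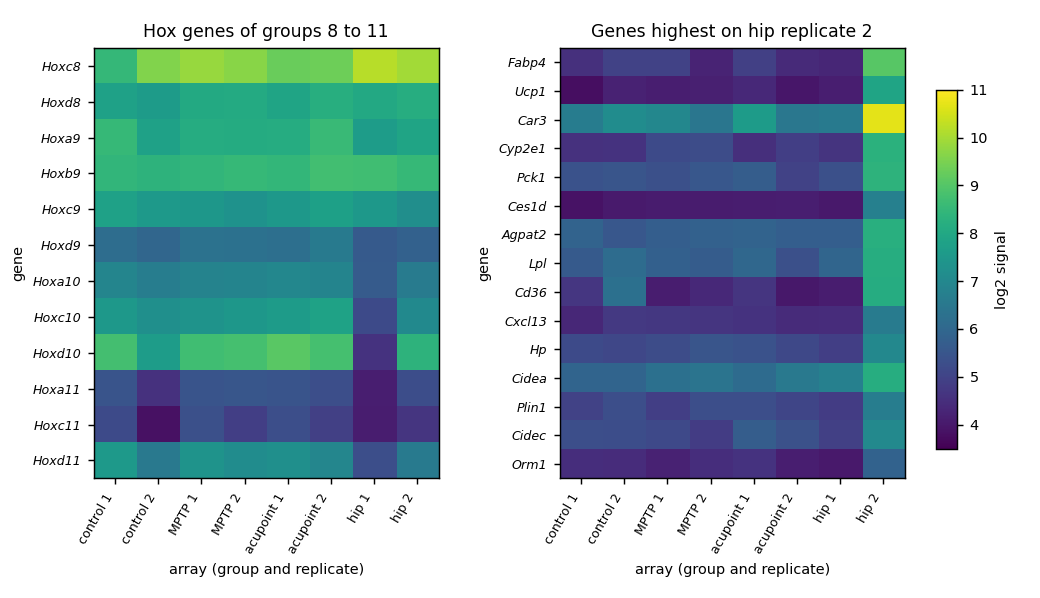
Log2 signal (colour) of the Hox genes of groups 8 to 11 (left) and of the 15 genes that hip replicate 2 held at least 1 log2 step above every other array (right), with 1 column per array. Hip replicate 1 is dark for Hoxd10, Hoxc10 and Hoxd11, and hip replicate 2 alone is bright for Fabp4, Ucp1 and Car3.

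Across all genes, a hip array and an MPTP array differed by a median of 0.0875 to 0.0959 in the 4 pairings of single arrays. The 2 hip arrays differed from each other by 0.0992 and the 2 MPTP arrays by 0.0766, so the differences between groups lay between those within groups. The group means, which vary less than single arrays, differed by a median of 0.068. By limma, 0 of 16026 genes passed an adjusted p of 0.05 (0%), and the lowest adjusted p was 1. At an unadjusted p under 0.05 there were 273 genes (1.7%), and at an unadjusted p under 0.01 there were 45 (0.281%), of which 29 were higher and 16 lower with hip needling. These counts depended on the fit: on the hip and MPTP arrays alone limma gave 1011 and 238, and with array weights 1029 and 260. The 2 acupoint arrays differed from each other by a median of 0.184 and the 2 control arrays by 0.132. Both gaps exceed those of the hip and MPTP pairs, and both enter the spread that the main fit shares over all groups. The 2 arrays of each group did not overlap in 5817 genes (36.3%), 2748 higher (17.1%) and 3069 lower (19.2%). In 16 genes the group means differed by at least 1 in log2 (0.0998%), and apart from Sprr1a they were mostly the fat and Hox genes of the single hip arrays. With 2 arrays against 2 the smallest exact permutation p for a gene is 0.333. Among 7309 further probe sets with several gene symbols or none, 0 passed in limma and 40 had an unadjusted p under 0.01 (0.547%).

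**Figure D2:**
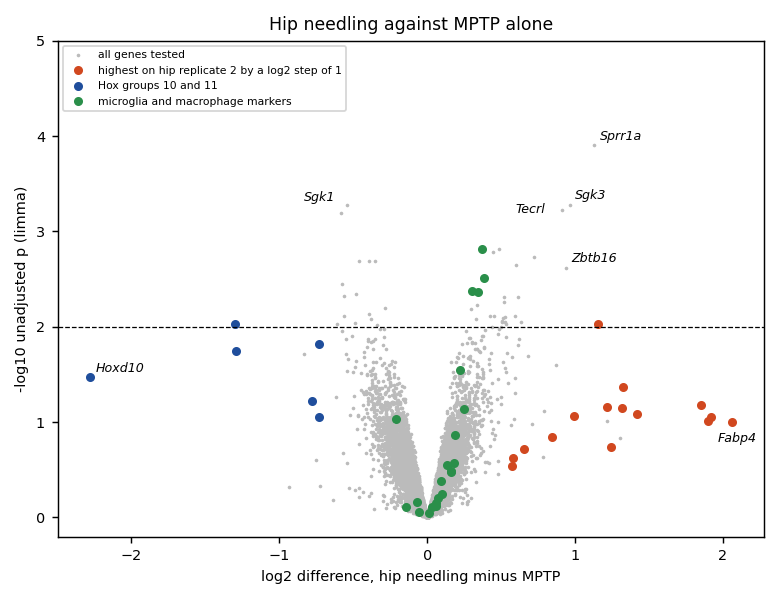
Each point is 1 gene, with the log2 difference between hip needling and MPTP alone on the horizontal axis and -log10 of the unadjusted limma p on the vertical axis, both from the fit to all arrays. The dashed line marks an unadjusted limma p of 0.01. Sprr1a, Sgk3, Tecrl and Sgk1 are the highest labelled points, while the fat genes and Hoxd10 lie far out at larger p because a single array carries them.

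Sprr1a and Atf3, genes of the response to nerve injury, were among the genes named by size. The list of injury genes as a whole leaned higher by a small amount, with members on both sides. Sprr1a, a cornified envelope gene that injured sensory neurons switch on as their axons regrow, was at 5.65 and 5.22 on the MPTP arrays and at 6.67 and 6.46 on the hip arrays. The difference of 1.13 (SE 0.18, 95% interval 0.72 to 1.54) is 2.19-fold and had the smallest p of the genes named, with an unadjusted limma p of 0.000125 and an adjusted p of 1. The acupoint arrays were also high for Sprr1a, at 6.52 and 6.19, and the control arrays were the lowest, at 5.16 and 4.97. Atf3, a transcription factor induced in injured neurons, was at 5.56 and 5.35 with MPTP and at 6.03 and 6.11 with hip needling, a difference of 0.62 (SE 0.17). On the acupoint arrays Atf3 was at 5.93 and 5.64, between the other groups. Jun, the partner of Atf3 in the injury response, was at 8.01 and 8.09 with MPTP and at 8.23 and 8.16 with hip needling, a difference of 0.14 (SE 0.09).

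Over the 17 nerve injury and regeneration genes tested, 12 were higher and 5 lower, 8 were above both MPTP arrays without overlap and 3 below (17.1% and 19.2% over all genes), and the median was 0.10 against -0.0062 over all genes. None passed the test, and Sprr1a and Atf3 were the 2 with an unadjusted limma p under 0.01. Among the other members, Nts, which encodes neurotensin, was at 8.02 and 7.97 and then at 8.37 and 8.02, and Npy, which encodes neuropeptide Y, was at 8.33 and 8.17 and then at 8.13 and 7.96. The list thus held members on either side, and its median was small beside the difference in Sprr1a. Markers of sensory ganglion neurons, which could come with dorsal roots, averaged 5.60 and 5.58 on the MPTP arrays and 5.50 and 5.60 on the hip arrays, and their part in the Sprr1a difference was not tested.

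The promoter of Sprr1a is shown because AP-1, the dimer family to which Jun and Fos belong, binds the letters TGANTCA. RefSeq promoters on GRCm38.p6 were searched on both strands over 250 bases before each start, and 6.75% of 32851 promoters held this motif. Sprr1a held it at 2 positions, 146 and 116 bases before its start, as capitals mark in the stretch at chr3:92485971-92486047 on the minus strand.
Sprr1a: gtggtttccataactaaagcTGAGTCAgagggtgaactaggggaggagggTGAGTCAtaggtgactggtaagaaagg
A match is a description of the letters and not a measured binding site. Of 30 genes searched, 22 had a promoter in the table, and Tecrl, Hoxd11 and Zfp36l1 held the same motif.

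Glucocorticoid-responsive genes lay on both sides of MPTP alone, and the kinases Sgk1 and Sgk3 lay in opposite directions. Sgk1, a kinase transcribed in response to serum and glucocorticoids, was at 8.78 and 8.65 on the MPTP arrays and at 8.09 and 8.27 on the hip arrays. The difference was -0.54 (SE 0.10, 95% interval -0.77 to -0.30), with an unadjusted limma p of 0.000525. Sgk1 was at 8.06 and 8.22 with acupoint needling and at 8.29 and 8.14 in controls, so the MPTP arrays without needling stood above all 6 others. Sgk3, a relative that acts at endosomes downstream of phosphoinositide 3-kinase, was at 8.14 and 8.21 with MPTP and at 9.05 and 9.24 with hip needling, a difference of 0.97 (SE 0.19, 95% interval 0.55 to 1.39). Both hip arrays were the highest of the 8 for Sgk3, and the acupoint arrays, at 7.37 and 8.06, were below the MPTP arrays. Fitted on the hip and MPTP arrays alone, limma called only Zbtb16 (SE 0.065, adjusted p = 0.0097) and Sgk3 (SE 0.075, adjusted p = 0.0111). With array weights limma called Sgk3 alone (adjusted p = 0.0317).

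Zbtb16, a zinc finger repressor strongly induced by glucocorticoids, was at 7.35 and 7.32 on the MPTP arrays and at 8.27 on both hip arrays. The difference was 0.94 (SE 0.23), and Zbtb16 on the acupoint arrays was split, at 7.36 on replicate 1 and 8.27 on replicate 2. Fkbp5, a co-chaperone that dampens the glucocorticoid receptor and is itself a receptor target, was at 8.02 and 7.96 with MPTP and at 8.35 and 8.66 with hip needling, a difference of 0.51 (SE 0.15). Fkbp5 was lower in controls, at 7.20 and 7.10, so the hip arrays lay further from control than the MPTP arrays did. Hsd11b1, the enzyme that regenerates active glucocorticoid inside cells, was at 7.51 and 7.48 with MPTP and at 7.22 and 7.01 with hip needling, a difference of -0.38 (SE 0.11), and controls were at 7.10 and 7.05. Nr3c1, the glucocorticoid receptor itself, was at 8.68 and 8.69 and then at 8.58 and 8.55.

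Of the 18 glucocorticoid-responsive genes tested, 12 were higher and 6 lower with hip needling, and the median was 0.22. Of the 18, 9 lay above and 3 below both MPTP arrays (17.1% and 19.2% over all genes). None passed, and 3 had an unadjusted limma p under 0.01 (Sgk1, Zbtb16 and Fkbp5). The metallothionein Mt2 was at 12.19 on both MPTP arrays and at 12.43 and 12.41 on the hip arrays. Plin4, a lipid droplet coat protein of fat that is also on the list, was at 6.30 and 6.28 and then at 6.59 and 7.04, and Angptl4, a secreted inhibitor of lipoprotein lipase, was at 4.92 and 5.05 and then at 5.24 and 5.92. In both genes hip replicate 2, the array with fat transcripts, was the higher. The list's median against the MPTP mean was 0.14 on hip replicate 1 and 0.22 on hip replicate 2, and the part of the fat transcripts was not tested.

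The promoter of Sgk1 is shown for its glucocorticoid response element, a palindrome with a spacer of free letters that 0.387% of promoters held on either strand. The element lies 188 bases before 1 of the 6 annotated starts of Sgk1, in capitals in the stretch at chr10:21993667-21993749 on the plus strand.
Sgk1: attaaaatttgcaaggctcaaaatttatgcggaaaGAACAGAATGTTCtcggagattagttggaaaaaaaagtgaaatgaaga
No other gene of the 22 searched held these letters in its window, which says nothing about the receptor elsewhere in those genes.

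**Figure D3:**
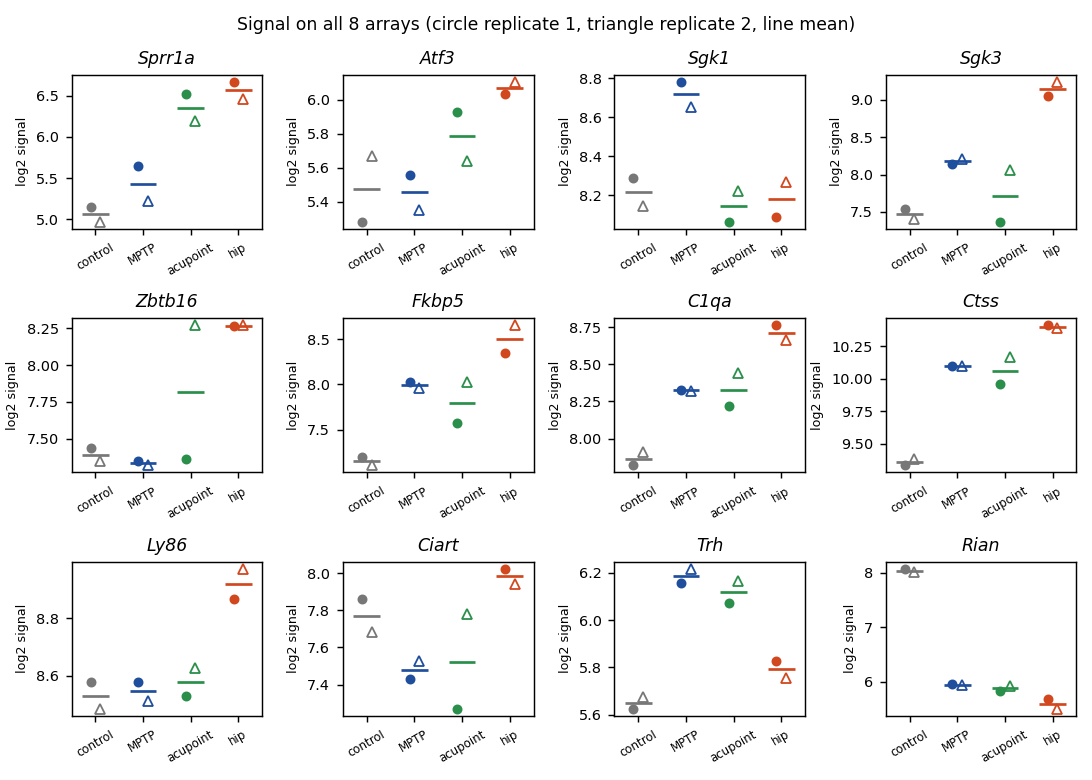
Log2 signal of 12 genes on all 8 arrays, by group, with a circle for replicate 1, a triangle for replicate 2 and a line at the mean of the pair. For Sgk1 the MPTP pair stands above the rest, for Sgk3 the hip pair does, and for Zbtb16 both hip arrays and acupoint replicate 2 are high.

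Microglial genes leaned higher with hip needling, by small amounts. Microglia are the resident macrophages of the cord, and they make C1q, the recognition molecule of the classical complement cascade, from the genes C1qa, C1qb and C1qc. C1qa was at 8.33 and 8.32 on the MPTP arrays and at 8.76 and 8.66 on the hip arrays, a difference of 0.39 (SE 0.10). C1qc was at 8.24 and 8.27 and then at 8.60 and 8.59, a difference of 0.34 (SE 0.09), and C1qb was at 8.15 and 8.08 and then at 8.31 and 8.36, a difference of 0.22 (SE 0.08). All 3 subunits were higher on both hip arrays. C1qa was also lower in controls, at 7.82 and 7.91, and at 8.22 and 8.44 with acupoint needling.

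Ctss, a lysosomal protease of microglia, was at 10.09 and 10.10 with MPTP and at 10.41 and 10.39 with hip needling, a difference of 0.31 (SE 0.08). Ly86, a partner of the Toll-like receptor relative RP105, was at 8.58 and 8.51 and then at 8.87 and 8.97, a difference of 0.37 (SE 0.08), while controls were at 8.58 and 8.48. Mertk, a receptor for clearance of dying cells, was at 7.10 and 6.995 and then at 7.53 and 7.54, a difference of 0.49 (SE 0.11). The hip pair was the highest of the 4 groups in each of these genes. Against this, Trem2, a microglial lipid receptor, was at 6.46 and 6.33 with MPTP and at 6.21 and 6.16 with hip needling.

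Of the 22 microglia and macrophage markers tested, 18 were higher and 4 lower, and the median was 0.12. Of the 22, 10 lay above and 2 below both MPTP arrays (17.1% and 19.2% over all genes). None passed, and C1qa, C1qc, Ctss and Ly86 had an unadjusted limma p under 0.01. Against the MPTP mean, the median of the markers was 0.195 on hip replicate 1 and 0.114 on hip replicate 2. Erythroid and platelet markers had medians of 0.368 and -0.051 on these arrays, with 8 of 8 higher on hip replicate 1, and the part of blood in the microglial difference was not tested. The mean of the markers was 6.94 and 6.95 with MPTP, 7.09 and 7.04 with hip needling, 6.93 and 6.97 with acupoint needling and 6.75 and 6.61 in controls. Of 12 complement genes, which share the C1q genes with this list, 10 were higher, 6 lay above both MPTP arrays and 0 below, and the median was 0.11. C4b, complement component 4, was at 6.97 and 6.98 with MPTP and at 7.43 and 7.27 with hip needling.

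C1qc carries the letters GAGGAAGT, a motif of PU.1, the transcription factor that defines macrophages and microglia. The motif was held by 2.44% of promoters and, among the 22 genes searched, by C1qc alone. The match lies 195 bases before the start, on the strand opposite to the gene, so it appears in its reverse complement in the stretch at chr4:136893072-136893139 on the minus strand, in capitals.
C1qc: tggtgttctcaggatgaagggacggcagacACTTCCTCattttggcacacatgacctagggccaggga

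Other immune lists were also a little higher. Of 18 interferon-stimulated genes 8 lay above both MPTP arrays and 0 below, with a median of 0.10, and Ifi27 was at 8.10 and 8.17 and then at 8.26 and 8.49. Of 12 antigen presentation genes 11 were higher, with a median of 0.15, but 3 of 12 did not overlap. The antigen presentation median was -0.03 on hip replicate 1 and 0.27 on hip replicate 2, so it rested on the latter array. The meninges and fibroblast markers averaged 6.46 and 7.55 on the MPTP arrays and 6.70 and 7.21 on the hip arrays, and their part in these medians was not tested. Of 16 cytokine and chemokine genes tested 3 lay above and 4 below both MPTP arrays, and the median was 0.05. These cytokine counts are near the shares over all genes, 17.1% above and 19.2% below.

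Of 9 lists of neuronal genes 7 had small negative medians, from -0.03 to -0.09, and no member passed the limma test. The 15 ionotropic glutamate receptor genes were evenly placed, with 8 higher and 7 lower, 3 above and 3 below both MPTP arrays and a median of 0.01, and the 16 motor neuron and cholinergic genes had 9 higher and 7 lower with the same median. Over all genes 17.1% lay above and 19.2% below both MPTP arrays. Trh, which encodes thyrotropin-releasing hormone, a peptide of dorsal horn neurons and of descending serotonin fibres, was at 6.16 and 6.22 on the MPTP arrays and at 5.83 and 5.76 on the hip arrays. The difference was -0.39 (SE 0.12), and the hip values lay near the controls, at 5.62 and 5.67. Sst, which encodes somatostatin of dorsal horn interneurons, was at 9.85 and 9.71 with MPTP and at 9.66 and 9.39 with hip needling. Grp, gastrin-releasing peptide, which carries itch signals, was at 7.58 and 7.71 and then at 7.23 and 7.33. All 3 peptides were below both MPTP arrays on both hip arrays. Of 19 dorsal horn peptide genes, 15 were lower, 9 lay below and 1 above both MPTP arrays, and the median was -0.09. The list of 15 dorsal horn receptors had a median of -0.04, with 4 below, a share near that of all genes, and 0 above.

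Opioid genes, which set the gain of pain transmission, were lower in 8 of 8 members, with a median of -0.09 and 5 below both MPTP arrays. For this and the lists that follow, the shares over all genes were 19.2% below and 17.1% above both MPTP arrays. Oprl1, the nociceptin receptor, was at 8.62 and 8.63 with MPTP and at 8.55 and 8.41 with hip needling, and Penk, the enkephalin precursor, was at 11.28 and 11.24 and then at 11.18 and 11.16. Oprl1 differed by -0.15 (SE 0.09) and Penk by -0.09 (SE 0.09), and the 95% intervals of both include 0. Of 10 serotonin receptor genes 7 lay below and 1 above, with a median of -0.06, and Htr1a, an inhibitory serotonin receptor, was at 6.92 and 6.89 and then at 6.77 and 6.62. Of 18 GABA and glycine genes 6 lay below and 2 above, with a median of -0.04, and of 15 pan-neuronal genes 5 lay below and 1 above, with 12 lower and a median of -0.03. Th, which makes catecholamines, was at 6.35 and 6.54 with MPTP and at 6.07 and 6.19 with hip needling, a difference of -0.32 (SE 0.22), while controls were at 6.41 and 5.58.

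Activity-linked immediate early genes were mostly lower, Atf3 being an exception. Of 25 tested, 19 were lower, and the median was -0.07. Of the 25, 11 lay below and 2 above both MPTP arrays (19.2% and 17.1% over all genes). Fos, whose transcript rises within minutes of synaptic activity, was at 6.56 and 6.46 with MPTP and at 6.24 and 6.32 with hip needling, a difference of -0.23 (SE 0.13), and acupoint arrays were at 6.67 and 6.66. Dusp1, a phosphatase that shuts off stress kinases, was at 7.71 and 7.86 and then at 7.59 and 7.47, and Nr4a2, a nuclear receptor of dopaminergic neurons, was at 5.74 and 5.55 and then at 5.27 and 5.41.

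Clock genes had a median near 0, with 10 of 17 higher and 7 lower, and Ciart differed the most. Ciart, a repressor of the CLOCK and BMAL1 activator, was at 7.43 and 7.53 on the MPTP arrays and at 8.02 and 7.94 on the hip arrays, a difference of 0.50 (SE 0.15), with controls at 7.86 and 7.68. Nr1d1, another clock repressor, was at 9.05 and 9.11 and then at 9.26 and 9.24. Bhlhe41, also on the list, was at 8.99 and 8.91 and then at 9.18 and 9.12. Of 17 clock genes 6 lay above and 2 below both MPTP arrays (17.1% and 19.2% over all genes), and the median was 0.01. The Ciart promoter held the E-box CACGTG, to which CLOCK and BMAL1 bind, at 3 positions, 116, 58 and 44 bases before its start. At least a single E-box was held by 6.02% of promoters and, among the 22 genes searched, also by Zfp459, Hoxd11, Sgk1 and Fkbp5. The matches in Ciart are in capitals in the stretch at chr3:95882255-95882356 on the minus strand.
Ciart: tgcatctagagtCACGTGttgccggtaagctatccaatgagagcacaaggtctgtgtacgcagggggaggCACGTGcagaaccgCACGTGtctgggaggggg

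Several genes of lipid handling were higher on both hip arrays than on both MPTP arrays, and highest on hip replicate 2. Cidea, a lipid droplet protein of brown fat, was at 6.27 and 6.38 with MPTP and at 6.78 and 8.18 with hip needling. Dgat2, which completes triglyceride synthesis, was at 7.46 and 7.34 and then at 7.69 and 8.17, and Fasn, fatty acid synthase, was at 9.08 and 8.98 and then at 9.36 and 9.75. For Fasn the control arrays, at 9.405 and 9.32, and the acupoint arrays, at 9.62 and 9.25, also lay above both MPTP arrays. Hip replicate 1 lay within each of these pairs. Ucp3, a mitochondrial carrier of muscle and fat, was at 6.68 and 6.66 and then at 7.07 and 7.29. In these 4 genes hip replicate 1 also lay above both MPTP arrays, by less than hip replicate 2. Without hip replicate 1, the differences from MPTP were 4.44 for Fabp4, 3.73 for Ucp1, 3.08 for Cyp2e1 and 2.92 for Pck1. They were 2.69 for Ces1d, 2.44 for Lpl and 1.855 for Cidea, and all 7 genes had high signal on hip replicate 2. Ces1d, at 3.88 to 4.14 on the other arrays, passed the filter at 4.3 only through hip replicate 2, as did Ucp1. Without hip replicate 2, Hoxc10 and Hoxd10 differed by -2.23 and -4.17.

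Other higher genes did not share a list. Tecrl, a reductase-like protein of the endoplasmic reticulum, was at 4.01 and 4.26 with MPTP and at 5.005 and 5.10 with hip needling. The difference was 0.91 (SE 0.18), near the lower end of the signals tested. On all arrays without hip needling Tecrl lay at 3.74 to 4.27, below the filter value of 4.3. It was thus tested only because the hip arrays raised its mean, so its difference is not independent of the filter. Xdh, the xanthine dehydrogenase that makes uric acid, was at 5.60 and 5.95 and then at 6.32 and 6.68, a difference of 0.72 (SE 0.17). Rhoj, a GTPase of endothelial cells, was at 6.92 and 7.15 and then at 7.61 and 7.67. The hip arrays were the highest of all 8 for each of these, although control replicate 1, at 7.59, was close to them for Rhoj. Trim59, a ubiquitin ligase, was at 8.21 and 8.25 and then at 8.83 and 8.70, Cdkn2c, a cell cycle kinase inhibitor, was at 5.26 and 5.33 and then at 5.68 and 5.96, and the zinc finger gene Zfp459 was at 4.94 and 4.82 and then at 5.59 and 5.22.

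Among the lower genes, Dnah7b, an axonemal dynein chain of cilia, was at 4.92 and 4.66 on the MPTP arrays and at 4.41 and 3.95 on the hip arrays, and controls were higher at 5.72 and 5.91. Rny3, a small non-coding Y RNA, was at 12.55 and 12.50 and then at 12.07 and 11.81, with controls at 12.87 and 13.10. For both, MPTP alone was already below control, and the hip arrays were lower again. Mmp14, a membrane-bound matrix protease, was at 7.51 and 7.71 and then at 7.33 and 6.92. Banp, a DNA-binding nuclear matrix protein, was at 7.49 and 7.28 and then at 6.82 and 6.99, with controls at 6.83 and 6.87. Ints2, a subunit of the Integrator complex that processes small nuclear RNAs, was at 6.54 and 6.61 and then at 6.16 and 6.07. Banp thus lay near the control level on the hip arrays, while Ints2 was below all other arrays. Zfp36l1, which promotes mRNA decay, was at 7.48 and 7.44 and then at 7.09 and 7.04, and Trib2, a pseudokinase, was at 8.30 and 8.27 and then at 7.99 and 7.88, with controls at 7.98 and 7.96.

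**Figure D4:**
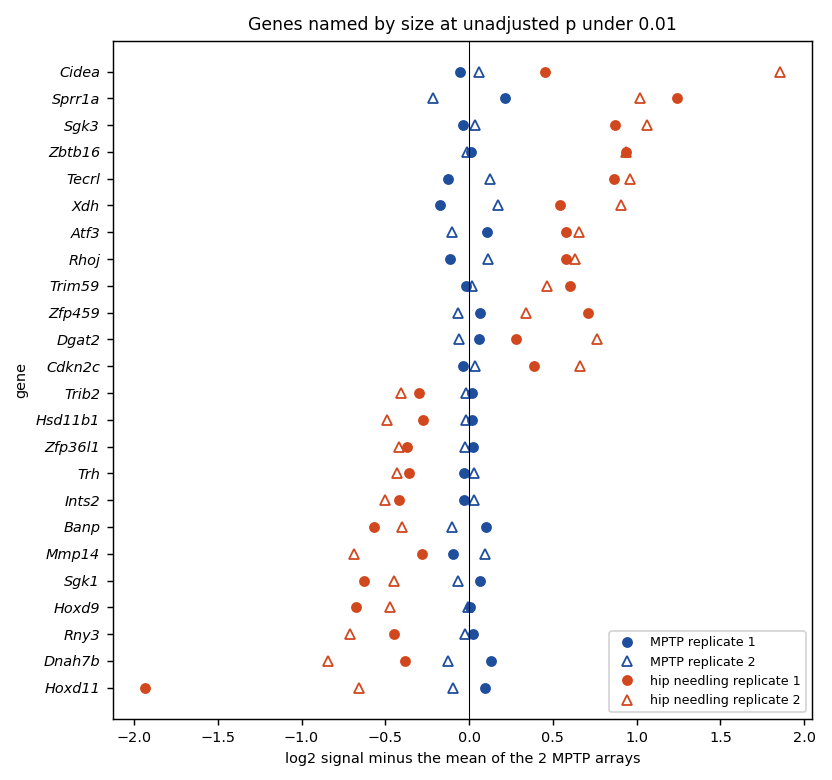
Log2 signal minus the mean of the 2 MPTP arrays for the 24 genes named by size, with circles for replicate 1 and triangles for replicate 2 of the MPTP (blue) and hip (orange) arrays. The hip arrays do not overlap the MPTP arrays in any of the 24, and Hoxd11 and Cidea show the widest gap between the 2 hip arrays.

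Glial and stress lists other than those above had small medians. Of 18 oligodendrocyte and myelin genes 16 were higher, and the median was 0.09. Of the 18, 8 lay above and 1 below both MPTP arrays (17.1% and 19.2% over all genes). Mobp, a myelin protein, was at 11.09 and 11.02 and then at 11.18 and 11.22. Of 17 antioxidant genes 9 lay above and 0 below, with a median of 0.06. Gpx1, glutathione peroxidase, was at 8.96 and 8.94 with MPTP and at 9.31 and 9.20 with hip needling, and Cat, catalase, was at 9.22 and 9.26 and then at 9.45 and 9.39. Both enzymes were above both MPTP arrays and were lower in controls. Astrocyte markers (16 tested) had a median of 0.01, heat shock genes (14) 0.02, complex I subunits (35) -0.02 and cytosolic ribosomal proteins (52) -0.01.

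**Figure D5:**
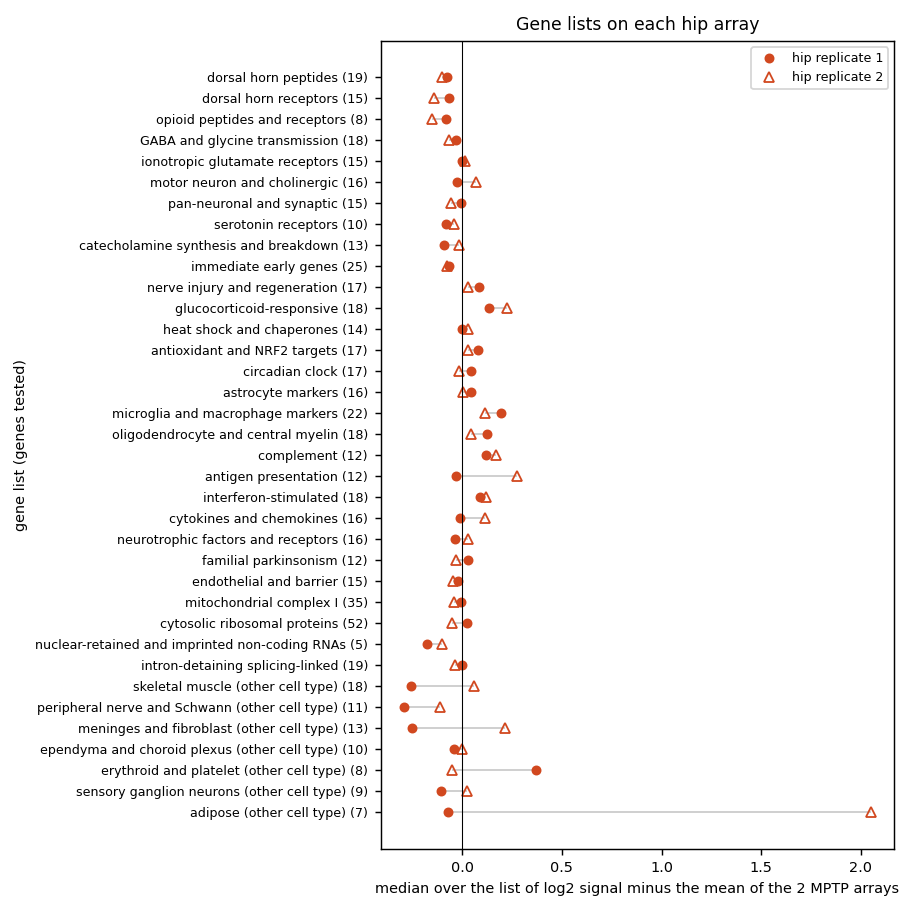
Median, over each gene list, of the log2 signal minus the mean of the 2 MPTP arrays, for hip replicate 1 (circles) and hip replicate 2 (triangles), with the number of genes tested in parentheses. Most lists lie close to 0 on both arrays, the adipose list lies at 2.05 on hip replicate 2 only, and the microglia list lies above 0 on both.

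Hip needling was set beside acupoint needling for the genes above, since both comparisons share the MPTP arrays. Acupoint needling against MPTP had 0 of 16026 genes called by limma (0%), 201 genes at an unadjusted p under 0.05 (1.25%) and 12 at an unadjusted p under 0.01 (0.0749%). For Sgk1 the differences from MPTP were -0.54 with hip and -0.58 with acupoint needling, and for Sprr1a they were 1.13 and 0.92. For Sgk3 they were 0.97 and -0.46, and for Fkbp5 0.51 and -0.20. Fkbp5 was at 7.57 and 8.02 on acupoint replicates 1 and 2, so only replicate 1 lay below the MPTP arrays, at 8.02 and 7.96. Hip against acupoint needling, a direct comparison, had 0 genes called (0%), 604 at an unadjusted p under 0.05 (3.77%) and 89 at an unadjusted p under 0.01 (0.555%). In that comparison Sgk3 differed by 1.43 (SE 0.19, limma adjusted p = 0.411), Fkbp5 by 0.71 and Sgk1 by 0.04. Alas2, which starts haem synthesis in red cell precursors, was at 7.87 and 7.81 with MPTP, at 8.57 and 7.40 with hip needling and at 5.59 and 6.64 with acupoint needling. Erythroid and platelet markers were highest on hip replicate 1, where they averaged 7.02, against 6.57 and 6.56 on the MPTP arrays and 6.42 on hip replicate 2.

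Against saline control, hip-needled MPTP mice differed in 3083 genes by limma (19.2%), and MPTP mice without needling in 2696 (16.8%), and both comparisons share the control arrays. Among the genes named for hip needling against control, those of skeletal muscle were the lowest, and Tnnt3, a troponin, and Atp2a1, a calcium pump, differed by -3.41 and -3.55. Muscle markers averaged 7.29 and 8.70 in controls, 5.78 and 5.73 with MPTP and 5.51 and 5.86 with hip needling, and their part in the differences from control was not tested. Between hip needling and MPTP alone the muscle list had a median of -0.10. Of its 18 genes 0 lay above and 3 below both MPTP arrays (17.1% and 19.2% over all genes).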

How the data were processed

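Tissue RNA was measured on 8 Affymetrix whole-transcript arrays, from 300 ng of total RNA each, per the labels' protocols. Per the submitters' processing notes, values were made with Affymetrix Expression Console and RMA; versions are not given in the sources used here. The authors deposited 1 log2 value for each of 35557 probe sets; no scan dates were used, so batches could not be tested. Probe sets with 1 symbol and a mean over all 8 arrays above the 30th percentile (4.3) were kept, the brightest per gene, leaving 16026 genes. A gene that is low elsewhere could thus pass through the arrays where it is high. limma 3.58.1 in R 4.3.3 fitted 1 mean per group to all 8 arrays (eBayes with trend, two-sided, 4 residual and 5.34 prior degrees of freedom), and Benjamini-Hochberg adjustment ran over all genes. As no gene passed, those named were the 12 largest in each direction among genes without overlap and with an unadjusted p under 0.01, which do not pass; predicted genes, receptors of smell and small RNAs were counted only. For each of 36 lists up to 4 members of smallest p were named, with others followed from earlier results or added after their values were seen. The comparison, lists and rules were chosen with earlier results of these data known. Tests were checked on simulated data. Alternatives are given in the closing section. Motifs not described above were D-box TTATGNAA (3.07% of promoters), CRE TGACGTCA (1.55%) and the antioxidant element TGACNNNGC (10.2%), of which 1 match in Sprr1a overlaps an AP-1 match. Plots used matplotlib 3.10.9.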

Additional observations from a re-analysis of the deposited data

How the results depend on the processing

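Over 22 other settings, 122 genes gave 2424 differences between hip needling and MPTP, of which 2402 kept their direction without passing the threshold, 14 passed it and 8 changed sign. With single arrays left out, the 7 genes whose sign turned ranged from -1.264 to 0.708 (Dcn, also 0.119 without hip replicate 1), from -0.44 to 0.73 (Alas2), from -0.743 to 1.233 (Ppbp), from -0.007 to 0.381 (Gfap), from -0.311 to 4.437 (Fabp4), from -0.027 to 3.734 (Ucp1) and from -0.145 to 3.98 (Car3). The low ends were without hip replicate 1 for Alas2, Ppbp and Gfap and without hip replicate 2 for Fabp4, Ucp1 and Car3. The count of genes called between hip needling and MPTP was 2 in a fit of only these groups and 1 with array weights, and ranged from 0 to 13 with single arrays left out; the number of lists holding a called gene was 1 in the 2-group fit and 0 to 1 with arrays left out. The count at an unadjusted p under 0.01 was 72 with no filter, 238 in the 2-group fit and 260 with array weights, and 12 to 116 with single arrays left out. Genes without overlap ranged from 5817 to 11544 with single arrays left out, since a group of 1 array overlaps less, and were 4488 with a filter at the 50th percentile, which tests fewer genes. The median difference between group means was 0.0748 with no filter, 0.0602 with a filter at the 50th percentile and 0.068 to 0.0838 with arrays left out. Leaving out arrays gave 0 to 622 calls for hip against acupoint needling (622 without acupoint replicate 2), 0 to 3 for acupoint needling against MPTP, 387 to 4637 for hip needling against control, and 69 to 4225 for MPTP against control, which was 4159 with array weights. The cause was not tested. The labels number mice but do not pair them; deviations of same-numbered hip and MPTP arrays correlated at 0.158 and those of other groups at -0.328 to 0.174. With the replicate number as a block, 0 genes were called and 37 had an unadjusted p under 0.01 (lowest adjusted p 0.311); with the acupoint and control numbers crossed, a choice made after seeing the data, 0 and 61. Only 2 arrays per group limit the precision, and signal over background is not recorded in these values.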

Other observations

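Long non-coding RNAs of the nucleus differed between hip needling and MPTP alone in both directions. Rian and Meg3, imprinted transcripts of the same cluster, were at 5.96 and 5.93 (Rian) and at 9.82 and 9.88 (Meg3) on the MPTP arrays, and at 5.69 and 5.50 and at 9.60 and 9.73 on the hip arrays. Malat1, a nuclear-speckle RNA, was at 10.11 and 10.49 with MPTP and at 10.59 and 10.77 with hip needling. Leng8, a transcript that retains introns, was at 6.90 and 6.89 and then at 6.70 on both hip arrays. All 4 were much higher in controls, with Rian at 8.07 and 8.00, and none passed the limma test between hip needling and MPTP.

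Vessel and transport genes were mixed. Slco1c1, a thyroid hormone transporter of the blood-brain barrier and of astrocytes, was at 9.30 and 9.20 with MPTP and at 9.00 and 8.81 with hip needling, with controls at 8.80 and 9.03. Tek, an endothelial receptor, was at 7.78 and 7.60 and then at 7.46 and 7.37. Of 15 endothelial and barrier genes 4 lay below and 2 above both MPTP arrays (19.2% and 17.1% over all genes), with a median of -0.07.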
